A study of Rattus norvegicus with 12 samples.

Results

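The 4 long-chain acyl-CoA synthetase genes Acsl1, Acsl3, Acsl4 and Acsl5 were followed in cultures of rat oligodendrocyte precursor cells (OPCs) exposed to inflammatory cytokines and to galinex (GAL), a compound that activates GPR17. They are 4 of the 30562 genes counted. Acsl1, Acsl3 and Acsl4 were taken by their Ensembl identifiers (ENSRNOG00000010633, ENSRNOG00000014718 and ENSRNOG00000019180). Acsl5 (ENSRNOG00000016265) was found through its symbol in the study's gene table, which was joined to the counts by the mean count over all libraries. Acsl6, a further gene of the family, was not analysed here.

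Long-chain acyl-CoA synthetases join a free long-chain fatty acid to coenzyme A, which is the step a fatty acid must pass before it can enter a membrane lipid, a lipid droplet, a protein acylation or an oxidation pathway. The isoforms differ in the fatty acids they prefer and in the membrane on which they sit. ACSL1 is best known from fat and muscle, where it feeds both storage and oxidation. ACSL3 sits on the endoplasmic reticulum and on forming lipid droplets, ACSL4 prefers arachidonic acid and other polyunsaturated fatty acids and is needed for ferroptosis, and ACSL5 is found on mitochondria and the endoplasmic reticulum and is known best from intestine and liver. Myelin is rich in lipid, and oligodendrocytes that build it activate large amounts of fatty acid.

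RNA was sequenced in 12 libraries, 3 for each of 4 groups. All cells were primary wild-type OPCs from the cortex of newborn rats of both sexes, pooled, and all had been moved to differentiating medium. CTL received neither agent, GAL received galinex at 10 nM, CTK-2 received a cocktail of 3 cytokines, each at 2 ng/mL (IFN-γ, IL-1β, TNF-α), and CTK2+GAL received both. Galinex or its solvent DMSO was added 6 h after the cytokines, and RNA was taken 24 h after that. The labels do not say whether replicates were separate cultures, so p-values measure the spread between these libraries, which may be technical. In cultures of mixed cells, fewer cells of a type and less RNA per cell cannot be told apart.

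The libraries held 2600797 to 8978185 counted read pairs, and the members had from 86 (Acsl5 in GAL replicate 1) to 3452 pairs in a library (Acsl3 in GAL replicate 2). OPC markers were plain in every library (Pdgfra at 415 CPM and Ptprz1 at 1840 CPM in CTL), and so were markers of maturing oligodendrocytes such as Ugt8 (738 CPM without and 329 CPM with cytokines, in CTL and CTK-2). Both cytokine-free libraries with the number 3 stood apart. Of 25 listed interferon-stimulated genes 20 had a symbol. Each had been called by the study in CTK-2 versus CTL, so their gap between libraries with and without cytokines is not independent. They summed to 7054 to 7798 CPM in the 6 libraries with cytokines. In CTL and in GAL 18 of the 20 were highest in replicate 3, and B2m alone reached 792 CPM in CTL. In CTL replicate 3 and GAL replicate 3 they summed to 1349 and 1314 CPM, against 92.7 to 111.5 CPM in the other 4 without. The 4 matched microglia markers (P2ry12, Csf1r, Ptprc and C1qc) summed to 9.73 and 10.5 CPM in these libraries, to 2.24 to 4.37 CPM in the other 4, where at most 1 marker was at 0 counts, and to 18.5 to 24.3 CPM with cytokines. Each member is therefore also given without these libraries.

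The promoters are shown because 3 members fell together with cytokines and 1 rose. Each run is the 250 bases before the RefSeq start on assembly GRCr8, 5′ to 3′ on the strand of the gene. Capitals mark the motifs that were found, a CCAAT box (CCAAT) or a GC box (GGGCGG), on either strand. The windows are chr16:52532393-52532642 (minus strand) for Acsl1, chr9:87563351-87563600 (plus strand) for Acsl3, chrX:110803262-110803511 (minus strand) for Acsl4 and chr1:264294601-264294850 (plus strand) for Acsl5. The RefSeq start used for Acsl1 lay inside the span of the gene, so other starts of this gene are not shown.
Acsl1: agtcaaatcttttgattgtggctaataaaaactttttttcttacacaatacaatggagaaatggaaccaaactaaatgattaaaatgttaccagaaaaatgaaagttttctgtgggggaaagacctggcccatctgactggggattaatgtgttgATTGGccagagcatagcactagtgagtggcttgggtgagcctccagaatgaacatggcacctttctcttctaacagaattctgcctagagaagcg
Acsl3: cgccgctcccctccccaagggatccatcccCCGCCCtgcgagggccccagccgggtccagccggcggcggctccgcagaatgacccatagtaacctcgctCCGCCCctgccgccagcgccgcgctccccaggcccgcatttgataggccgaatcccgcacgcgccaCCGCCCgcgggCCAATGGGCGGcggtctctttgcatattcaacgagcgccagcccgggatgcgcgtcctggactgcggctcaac
Acsl4: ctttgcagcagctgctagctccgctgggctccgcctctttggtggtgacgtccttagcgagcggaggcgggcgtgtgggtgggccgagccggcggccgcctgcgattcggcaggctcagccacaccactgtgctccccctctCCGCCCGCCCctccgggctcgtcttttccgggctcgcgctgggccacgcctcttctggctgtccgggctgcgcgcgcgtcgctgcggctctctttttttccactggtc
Acsl5: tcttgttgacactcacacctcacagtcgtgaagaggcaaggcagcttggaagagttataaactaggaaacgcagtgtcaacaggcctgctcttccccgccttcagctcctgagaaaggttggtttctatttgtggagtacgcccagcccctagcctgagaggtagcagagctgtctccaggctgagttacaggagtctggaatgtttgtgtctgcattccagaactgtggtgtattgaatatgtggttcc

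The windows fell into 2 kinds. Those of Acsl3 and Acsl4 had a GC content of 72.4% and 70.4% with 31 and 28 CpG dinucleotides, and those of Acsl1 and Acsl5 had 40% and 50.4% with 1 and 4. Acsl3 held 4 GC boxes and a CCAAT box, and Acsl4 held 2 GC boxes that overlap by 2 bases. A single CCAAT box was found in the Acsl1 window and neither motif in the Acsl5 window. Among 33469 promoter windows of the same length, 30.5% held a GC box and 34.0% a CCAAT box. Further patterns were searched on both strands and were in none of the 4 windows. They were TTCNNNGAA, a pattern bound by STAT factors (in 7.67% of all windows), 2 copies of GAAA with 2 bases between them, as in interferon response elements (3.41%), GGGA and TTCC with 2 bases between them, as in NF-κB sites (1.08%), TCACNCCAC, a sterol response element (0.974%), and 2 copies of AGGTCA with 1 base between them, as in PPAR elements (0.0508%). The split by base composition did not follow the split by direction, since Acsl1 shared its low CpG number with Acsl5 and its fall with Acsl3 and Acsl4.

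The first question was how each synthetase responded to the cytokines. Acsl1, Acsl3 and Acsl4 were lower and Acsl5 was higher with cytokines, by about the same factor with and without galinex. Levels are given as TMM-normalized CPM, a gene's read pairs scaled to library size, which compare a gene between libraries, and differences as log2 fold changes. A gene was called when its log2 fold change was 0.59 or more in size and its adjusted p did not exceed 0.05 (edgeR, Benjamini-Hochberg over the 13348 genes tested). All 4 members passed the filter on low counts and all 4 were called in both comparisons. All 4 stand in the study's gene table, which holds genes that the study had called in CTK-2 versus CTL. Their calls in that comparison are therefore not independent of how they were chosen.

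Acsl1 lies on chromosome 16 from 45755254 to 45821541 of mRatBN7.2, on the minus strand. It was measured at 132, 134 and 124 CPM in the 3 CTL libraries and at 55.6, 62.1 and 64.8 CPM in CTK-2. With galinex it was at 133, 113 and 125 CPM without cytokines and at 63.96, 75.4 and 58.5 CPM with them. Every library with cytokines was below every library without. Its log2 fold change was -1.09 (SE 0.087, edgeR adjusted p = 1.1e-08) in CTK-2 versus CTL, a 2.13-fold fall, and -0.90 (SE 0.087, adjusted p = 1.3e-07) in CTK2+GAL versus GAL, a 1.87-fold fall.

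Acsl3 (chromosome 9, 80115112 to 80164627, plus strand) was at 553, 564 and 545 CPM in CTL, at 588, 578 and 568 CPM in GAL, at 316, 344 and 333 CPM in CTK-2 and at 327, 326 and 355 CPM in CTK2+GAL. The libraries with cytokines again lay below all others, with a wide gap between 355 and 545 CPM. The log2 fold change was -0.74 (SE 0.057, edgeR adjusted p = 6.6e-09) in CTK-2 versus CTL and -0.78 (SE 0.057, adjusted p = 3.3e-09) in CTK2+GAL versus GAL. Another gene on the same strand overlaps 421 of its 3235 exon bases (13.0%), and pairs that fell there were not counted.

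Acsl4 lies on chromosome X from 105942799 to 106006427, on the minus strand. It was at 202, 178 and 189 CPM in CTL and 204, 202 and 191 CPM in GAL, and at 96.6, 97.9 and 106 CPM in CTK-2 and 111, 105 and 109 CPM in CTK2+GAL. The 6 libraries with cytokines lay in a narrow band below all of the others. Its log2 fold change was -0.92 (SE 0.062, edgeR adjusted p = 1.1e-09) without galinex and -0.87 (SE 0.061, adjusted p = 2.1e-09) with it.

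Acsl5, on chromosome 1 from 254292521 to 254336607 (plus strand), was the only member to rise. It was at 33.2, 33.0 and 42.6 CPM in CTL and at 33.4, 35.2 and 43.3 CPM in GAL. With cytokines it was at 73.0, 74.3 and 72.3 CPM (CTK-2) and at 78.0, 78.1 and 74.8 CPM (CTK2+GAL). The groups did not overlap, and among the libraries without cytokines the highest were both replicates 3, in which the interferon-stimulated genes were high as well. The log2 fold change was 1.01 (SE 0.097, edgeR adjusted p = 1.3e-07) in CTK-2 versus CTL, a 2.01-fold rise, and 1.02 (SE 0.097, adjusted p = 1.2e-07) in CTK2+GAL versus GAL, a 2.02-fold rise. A gene on the opposite strand overlaps 418 of its 4138 exon bases (10.1%), which counting by strand kept apart.

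**Figure D1:**
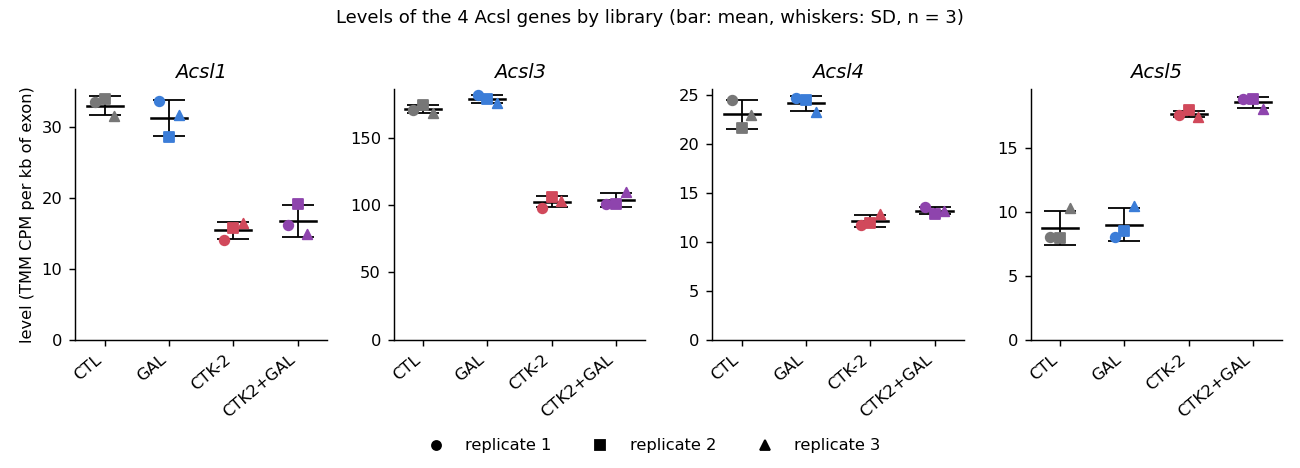
Level of each synthetase gene by library (vertical axis from 0, TMM CPM per kilobase of exon; horizontal axis, group; marker shape, replicate; bar and whiskers, mean and SD of 3 libraries). Acsl1, Acsl3 and Acsl4 were lower in all 6 libraries with cytokines than in any library without, and Acsl5 was higher, with replicates 3 of CTL and GAL at the top of their groups.

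These counts were read against all genes. In CTK-2 versus CTL 1538 genes (11.5%) were called higher and 773 (5.79%) lower, and in CTK2+GAL versus GAL 1558 (11.7%) and 766 (5.74%). Libraries of the groups did not overlap for 25.2% of genes that were higher and 23.8% that were lower in the first comparison, and for 25.5% and 24.0% in the second. The fall of Acsl1 in CTK-2 versus CTL lay at percentile 1.93 of all log2 fold changes, that of Acsl4 at 2.97 and that of Acsl3 at 4.88. The rise of Acsl5 lay at percentile 92.4, since many genes rose more. The members were among the genes that the study had called in this comparison, so these percentiles are not independent of that choice.

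Without CTL replicate 3 and GAL replicate 3, an alternative chosen after seeing the data, Acsl5 had a log2 fold change of 1.15 in either comparison (edgeR adjusted p = 9.1e-13 and 2.2e-12). Acsl1 was then at -1.12 and -0.88, Acsl3 at -0.75 and -0.79, and Acsl4 at -0.93 and -0.90 (adjusted p from 1.3e-13 to 6.8e-10). The part of the interferon response in the level of Acsl5 was not tested. In the plot of Acsl5 against the interferon-stimulated genes, the libraries formed 3 clusters, those with cytokines, both replicates 3 without them, and the other 4.

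**Figure D2:**
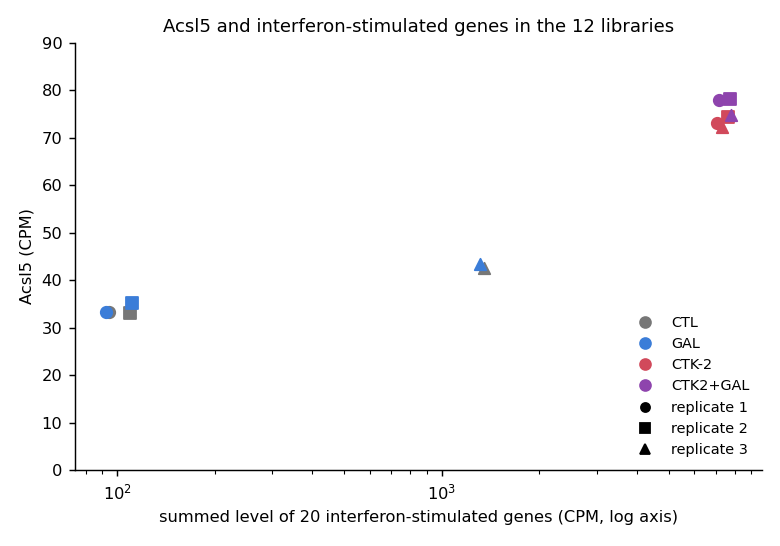
Acsl5 (vertical axis, CPM, from 0) against the summed level of 20 interferon-stimulated genes (horizontal axis, CPM, log axis) in the 12 libraries, with colour for group and marker shape for replicate. CTL replicate 3 and GAL replicate 3, at 42.6 and 43.3 CPM of Acsl5, sit between the other 4 libraries without cytokines (33.0 to 35.2 CPM) and the 6 with them (72.3 to 78.1 CPM). The 20 genes had been called by the study in CTK-2 versus CTL, so their gap between libraries with and without cytokines is not independent.

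Galinex was asked about next, alone and on top of cytokines. No member was called in either comparison. In GAL versus CTL the log2 fold change was -0.09 for Acsl1 (95% interval -0.26 to 0.09), 0.06 for Acsl3 (-0.06 to 0.18), 0.06 for Acsl4 (-0.06 to 0.19) and 0.06 for Acsl5 (-0.17 to 0.28). In CTK2+GAL versus CTK-2 it was 0.10 for Acsl1 (-0.09 to 0.30), 0.02 for Acsl3 (-0.10 to 0.14), 0.12 for Acsl4 (-0.02 to 0.25) and 0.07 for Acsl5 (-0.11 to 0.25). The intervals all hold 0, and they leave room for differences of up to 0.30 on the log2 scale for Acsl1. The largest bound in fold was 1.23, for Acsl1 in CTK2+GAL versus CTK-2. The 3 GAL libraries lay above the 3 CTL libraries for 1 member, Acsl3 (568 to 588 against 545 to 564 CPM), and the CTK2+GAL libraries above CTK-2 for 1 member, Acsl5 (74.8 to 78.1 against 72.3 to 74.3 CPM). Such a gap without overlap was found for 4.09% of all genes in the higher and 4.23% in the lower direction in GAL versus CTL, and for 5.72% and 5.77% in CTK2+GAL versus CTK-2.

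Over all genes edgeR called 0 of 13348 (0%) in GAL versus CTL and 0 (0%) in CTK2+GAL versus CTK-2, where 574 and 545 had an unadjusted p under 0.05. DESeq2 called 0 in both as well. The interaction, which asks whether the cytokine response differed with galinex, gave 0 calls (0%) by edgeR and by DESeq2, with 376 genes at an unadjusted p under 0.05 in edgeR. Without CTL replicate 3 and GAL replicate 3 edgeR called 4 of 13315 genes in GAL versus CTL, all lower, and 6 in the interaction, all positive, and with no filter on low counts 2 and 4 of 20963. No member was among them. For Acsl1 the interaction was 0.19 (95% interval -0.07 to 0.45), for Acsl3 -0.04 (-0.21 to 0.13), for Acsl4 0.05 (-0.13 to 0.23) and for Acsl5 0.01 (-0.28 to 0.30). The edgeR adjusted p of every member was at least 0.9999 in the galinex comparisons and in the interaction.

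**Figure D3:**
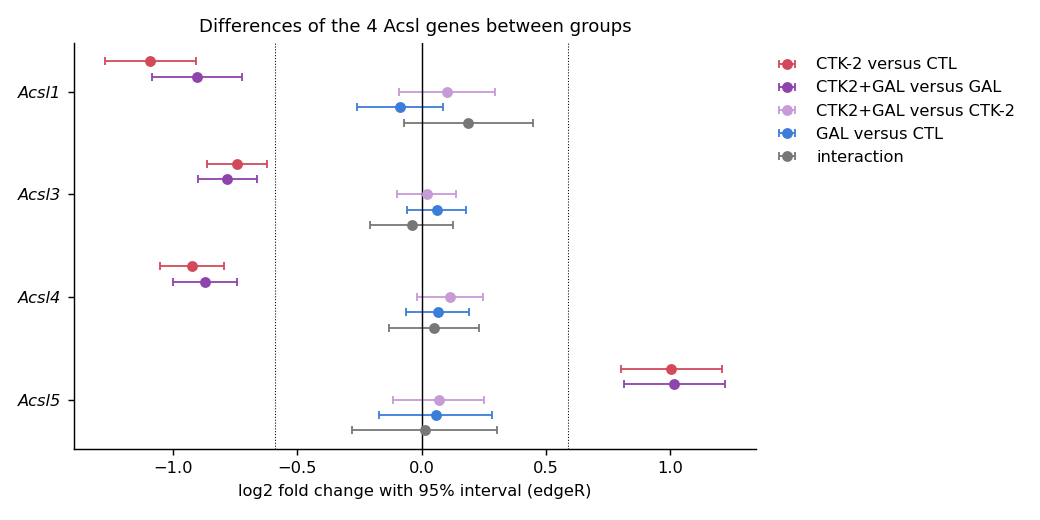
Log2 fold change of each member with its 95% interval (horizontal axis) in the 4 comparisons and the interaction; dotted lines mark the fold change needed for a call, 0.59 in either direction. Both cytokine comparisons lie beyond the lines for all 4 genes, and the intervals of the galinex comparisons and of the interaction include 0.

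The next comparison was of the isoforms with each other, and it used the level per kilobase of exon (CPM/kb), because long transcripts give more read pairs. The exon lengths were 3937 bases for Acsl1, 3235 for Acsl3, 8233 for Acsl4 and 4138 for Acsl5. They cover all annotated exons of a gene, which the transcripts present need not all contain. For Acsl3 the length includes the 421 bases where pairs were not counted, so its level per kilobase and its share may be too low. In CTL, Acsl3 stood at 171 ± 2.97 CPM/kb (SD, n = 3), Acsl1 at 33.1 ± 1.33, Acsl4 at 23.1 ± 1.46 and Acsl5 at 8.77 ± 1.33. The order Acsl3, Acsl1, Acsl4, Acsl5 held in each of the 6 libraries without cytokines, and the ranges of neighbours did not overlap in CTL or in GAL.

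With cytokines the order below Acsl3 changed. In CTK-2, Acsl3 stood at 102 ± 4.25 CPM/kb, Acsl5 at 17.7 ± 0.253, Acsl1 at 15.5 ± 1.20 and Acsl4 at 12.2 ± 0.602 (SD, n = 3), and no ranges of neighbours overlapped. In CTK2+GAL the means were 104 ± 5.22, 18.6 ± 0.455, 16.8 ± 2.20 and 13.2 ± 0.361 in the same order. There the ranges of Acsl5 (18.1 to 18.9) and Acsl1 (14.9 to 19.2) overlapped, so these neighbours did not differ beyond their spread. Acsl5 was above Acsl1 in 5 of 6 libraries with cytokines and in 0 of 6 without, and above Acsl4 in all 6 with cytokines. This order holds per length. By CPM, without division by exon length, Acsl4 was above Acsl1 and above Acsl5 in all 12 libraries, and Acsl5 was above Acsl1 in all 6 with cytokines.

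The members were then expressed as shares of their summed level in each library. The share of Acsl5 was 3.38%, 3.35% and 4.42% in CTL, 3.25%, 3.54% and 4.35% in GAL, 12.5%, 11.8% and 11.7% in CTK-2, and 12.6%, 12.5% and 11.6% in CTK2+GAL. The cytokine groups were thus far above the others, with no library in between. Averaged over both backgrounds the share of Acsl5 rose by 8.39 percentage points (exact permutation test, two-sided, p = 0.005, adjusted p = 0.0133 over 4 shares and 2 factors). This p is the smallest that the 400 assignments of labels within a background allow. The assignments treat both backgrounds as unrelated, although same-numbered CTL and GAL libraries deviated together. An alternative took the replicate number as a block, an exact sign-flip test of 6 differences with a smallest p of 0.03125. It pairs libraries with and without cytokines, which did not deviate together, and it also treats both backgrounds as unrelated. By this sign-flip test the change in the share of Acsl5 was not called (adjusted p = 0.0833), nor were those of Acsl3 and Acsl4 (0.0833 each) and Acsl1 (0.125) below. For Acsl3, Acsl4 and Acsl5 the p before adjustment was already the smallest possible, so the block cannot decide about these shares.

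Acsl3 held most of the sum in every library. Its mean share was 72.5% ± 0.653 in CTL, 73.5% ± 0.786 in GAL, 69.3% ± 0.586 in CTK-2 and 68.1% ± 2.06 in CTK2+GAL (SD, n = 3). With cytokines it fell by 4.27 percentage points (exact permutation p = 0.005, adjusted p = 0.0133). The share of Acsl1 was 14.0% ± 0.418, 12.9% ± 0.859, 10.5% ± 0.499 and 11.01% ± 1.57 in the same groups, and it fell by 2.71 points (exact permutation p = 0.01, adjusted p = 0.02). Its change was -3.53 points without galinex and -1.88 points with it. With galinex the ranges overlapped (11.9% to 13.6% in GAL, 9.52% to 12.6% in CTK2+GAL). The share of Acsl4 was 9.77% ± 0.640, 9.94% ± 0.272, 8.24% ± 0.375 and 8.65% ± 0.340, and it fell by 1.41 points (exact permutation p = 0.005, adjusted p = 0.0133). Shares are bound to each other, since they add up to the whole, and the share of Acsl4 fell by 2.94 points when counts were not divided by exon length.

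Galinex moved no share beyond the spread between libraries. Its differences over both backgrounds were -0.28 points for Acsl1, -0.12 for Acsl3, 0.29 for Acsl4 and 0.11 for Acsl5 (exact permutation, adjusted p from 0.424 to 0.835).

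**Figure D4:**
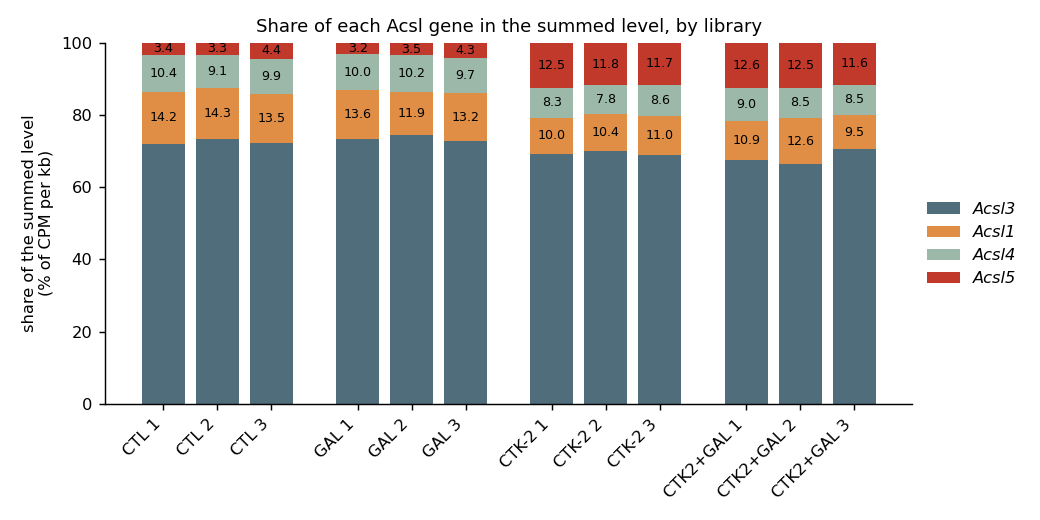
Share of each gene in the summed level of the 4 members (vertical axis, percent of CPM/kb, from 0 to 100) for each of the 12 libraries; numbers give the shares of Acsl1, Acsl4 and Acsl5. The band of Acsl5 is 3.2% to 4.4% high in the libraries without cytokines and 11.6% to 12.6% high in those with them.

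The summed level itself fell. It was 237, 238 and 233 CPM/kb in CTL, 248, 240 and 241 in GAL, 141, 152 and 150 in CTK-2, and 149.6, 152 and 156 in CTK2+GAL. Cytokines lowered it by 0.68 on the log2 scale over both backgrounds (to 0.626 of the level without; exact permutation p = 0.005, adjusted p = 0.01 over 2 factors). Of the 88.5 CPM/kb lost between CTL and CTK-2, Acsl3 made up 68.9 (77.9%), Acsl1 17.6 (19.9%) and Acsl4 10.9 (12.3%), while Acsl5 added 8.92. Of the 90.8 CPM/kb lost between GAL and CTK2+GAL, Acsl3 made up 74.8 (82.4%), Acsl1 14.6 (16.1%) and Acsl4 10.99 (12.1%), and Acsl5 added 9.59.

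With galinex the sum was 0.04 higher on the log2 scale (1.03-fold; exact permutation p = 0.04, adjusted p = 0.04 over 2 factors). This call rested on few libraries: it was lost without CTL replicate 1 (p = 0.065), CTL replicate 3 (p = 0.09), GAL replicate 1 (p = 0.065), CTK-2 replicate 1 (p = 0.105), CTK2+GAL replicate 2 (p = 0.09) or CTK2+GAL replicate 3 (p = 0.115), each by the exact permutation test, and with the replicate block (exact sign-flip test, p = 0.0625).

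Ratios between pairs of members ask whether the genes that fell did so by the same factor. Cytokines changed the ratios of Acsl1, Acsl3 and Acsl4 to Acsl5 by -2.04, -1.80 and -1.94 on the log2 scale (exact permutation p = 0.005 and adjusted p = 0.01 over 6 pairs for each). The ratio of Acsl3 to Acsl5 went from 19.7 in CTL to 5.79 in CTK-2, and that of Acsl1 to Acsl5 from 3.80 to 0.872. Among the 3 that fell, differences were small. The ratio of Acsl3 to Acsl4 rose by 0.14 (exact permutation p = 0.02, adjusted p = 0.03), from 7.44 in CTL to 8.42 in CTK-2, and that of Acsl1 to Acsl3 changed by -0.24 (p = 0.04, adjusted p = 0.048, exact permutation). Acsl1 and Acsl4 did not differ in their fall beyond the spread (change of the ratio -0.11, exact permutation p = 0.22).

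The small ratio changes were fragile. Acsl1 to Acsl3 was no longer called without any 1 of 10 libraries, with GAL replicate 2 and CTK2+GAL replicate 2 as the exceptions (adjusted p from 0.0225 to 0.084 over the 12 omissions, exact permutation). Acsl3 to Acsl4 was lost without GAL replicate 1 (adjusted p = 0.0525), CTK-2 replicate 1 (0.06) or CTK-2 replicate 2 (0.06), and without CTK2+GAL replicate 2 the ratio of Acsl1 to Acsl4 was called at -0.17 (adjusted p = 0.04), all by the exact permutation test. With the replicate block the ratio of Acsl1 to Acsl3 was not called (adjusted p = 0.15), and that of Acsl3 to Acsl4 and the 3 ratios to Acsl5 were (adjusted p = 0.0469 each, exact sign-flip test).

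Over the 12 libraries the log2 levels of Acsl1, Acsl3 and Acsl4 followed each other (Pearson r from 0.96 to 0.99 between pairs), and Acsl5 ran against them (r from -0.97 to -0.95). These values mostly reflect the split into libraries with and without cytokines, which all genes called share. By the same measure, among 1282 other genes with a symbol and a mean count of at least 50, those close to Acsl3 included Pnlip (0.997) and Rps6ka5 (0.995). Only genes that the study had called in CTK-2 versus CTL had a symbol. High correlations with the members were thus built into this choice, and genes without a symbol were not compared. Closest to Acsl4 were Dstyk (0.993), Pank3 (0.993), which makes coenzyme A from pantothenate, and Sema5a (0.992). For Acsl1 they were Cobll1 (0.989), Cdk2ap1 (0.987) and Zcchc18 (0.983). Acsl5 was closest to Gbp5 (0.998) and Eif2ak2 (0.998), both induced by interferon, and to RT1-N3 (0.998), an MHC class I gene. Gbp5 had 1.79 CPM without cytokines and 548 CPM in the CTK-2 group, so a like course over libraries did not mean a like size of change.

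The other genes that make or use acyl-CoA were described from 12 lists. Of 160 listed genes, 40 could be matched to a symbol. Symbols were at hand only for genes that the study had called in CTK-2 versus CTL, so all 40 being called there (17 higher, 23 lower) is not independent. In CTK2+GAL versus GAL 12 were called higher, 21 lower and 7 were not called. Over all genes 11.7% were called higher and 5.74% lower in CTK2+GAL versus GAL. The 40 had been chosen for a call in CTK-2 versus CTL, and the share called among all genes with a symbol was not computed. The libraries of the 2 comparisons are listed next. CTK2+GAL versus GAL uses other libraries than CTK-2 versus CTL. Same-numbered CTL and GAL libraries deviated together, however, so it is not fully independent of the first comparison. None of the 40 was called by edgeR in either galinex comparison or in the interaction. Values below are log2 fold changes for CTK-2 versus CTL and then for CTK2+GAL versus GAL, each called by edgeR unless stated.

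Of 17 other acyl-CoA synthetases listed 5 were matched, and 3 of the 5 rose and 2 fell in CTK-2 versus CTL. The fatty acid transport proteins Slc27a1 (0.69 and 0.70) and Slc27a3 (0.92 and 1.14), which take up and activate fatty acids, rose, and the bubblegum synthetase Acsbg1 rose in the first comparison (0.63) with 0.28 in the second (not called). Slc27a6 fell from 4.26 to 0.383 CPM (-3.41 and -3.61). Aacs, which activates acetoacetate for lipid synthesis, fell (-0.77 and -0.66).

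On the side of acyl-CoA use, the thioesterase Acot1, which splits acyl-CoA back into fatty acid and coenzyme A, rose from 5.72 ± 0.685 to 75.3 ± 5.26 CPM (SD, n = 3; 3.70 and 3.66). Another thioesterase gene, Acot7, fell by 0.62 in the first comparison and was at -0.55 (not called) in the second. The acyl-CoA binding protein gene Acbd4 rose by 0.78 and was at 0.52 (not called). Of 16 listed glycerolipid acyltransferases, which place acyl groups on glycerol, 3 were matched. These were Gpat4 (-0.77 and -0.76), Agpat4 (-0.73 and -0.74) and Dgat2 (-1.06 and -0.98), and they fell in both comparisons. Of the 3 matched among 8 listed lysophospholipid acyltransferases, Lpcat4 (-0.86 and -0.74) and Mboat2 (-1.11 and -1.14) fell, and Mboat1 was at 0.85 (called) and 0.71 (not called).

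Of 16 listed genes of the carnitine shuttle and beta oxidation 4 were matched, and these were split. Cpt1a, which hands long-chain acyl groups to carnitine at the mitochondrial surface, rose (1.01 and 1.21), as did Eci1, an isomerase for unsaturated acyl-CoA (1.90 and 1.92), and Cpt1c was at 0.62 (called) and 0.46 (not called). Hadh, a later enzyme of the mitochondrial cycle, fell (-0.89 and -0.87). Of 12 listed peroxisomal genes 2 were matched, and both fell, the acyl-CoA transporter Abcd2 (-2.44 and -2.42) and the bifunctional enzyme Ehhadh (-1.04 and -0.89).

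Of 18 listed genes that lengthen or desaturate acyl-CoA 7 were matched, and the other 11 were not analysed here. All 7 were called lower in CTK-2 versus CTL, where matching needed a call in one direction or the other, and 6 of 7 in CTK2+GAL versus GAL. Of all genes 5.74% were called lower in CTK2+GAL versus GAL, but these 7 had been chosen for a call in CTK-2 versus CTL. Scd2, a stearoyl-CoA desaturase, went from 5436 ± 507 to 2763 ± 16.9 CPM (SD, n = 3; -0.98 and -1.02), and Scd (-1.29 and -1.46), Fads1 (-0.70 and -0.70) and Fads2 (-0.79 and -0.77) fell too. Elovl7 was the gene not called in the second comparison (-0.56). Far1, which reduces acyl-CoA to the alcohol used in ether lipids, fell (-0.84 and -0.73), and the ceramide synthase gene Cers4 rose (0.68 and 0.73).

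Lipid storage and its regulators were mixed as well. The lipases Mgll (-2.82 and -2.71) and Lipa (-0.77 and -0.85) and the lipase cofactor Abhd5 (-0.82 and -0.72) fell, and the droplet coat gene Plin2 rose (1.33 and 1.30). Of the regulators, Ppard (1.26 and 1.35) and Nr1h2 (0.93 and 0.96), nuclear receptors for fatty acids and for oxysterols, rose. Insig1, which holds back transcription through sterol response elements and is itself a target of it, fell (-1.11 and -1.03). Ppargc1a was at 0.59 (called) and 0.48 (not called). The 3 matched among 16 genes of the ferroptosis list, Hmox1 (0.95 and 0.72), Nfe2l2 (1.11 and 1.30) and Sat1 (1.07 and 1.01), rose while Acsl4 of the same pathway fell.

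**Figure D5:**
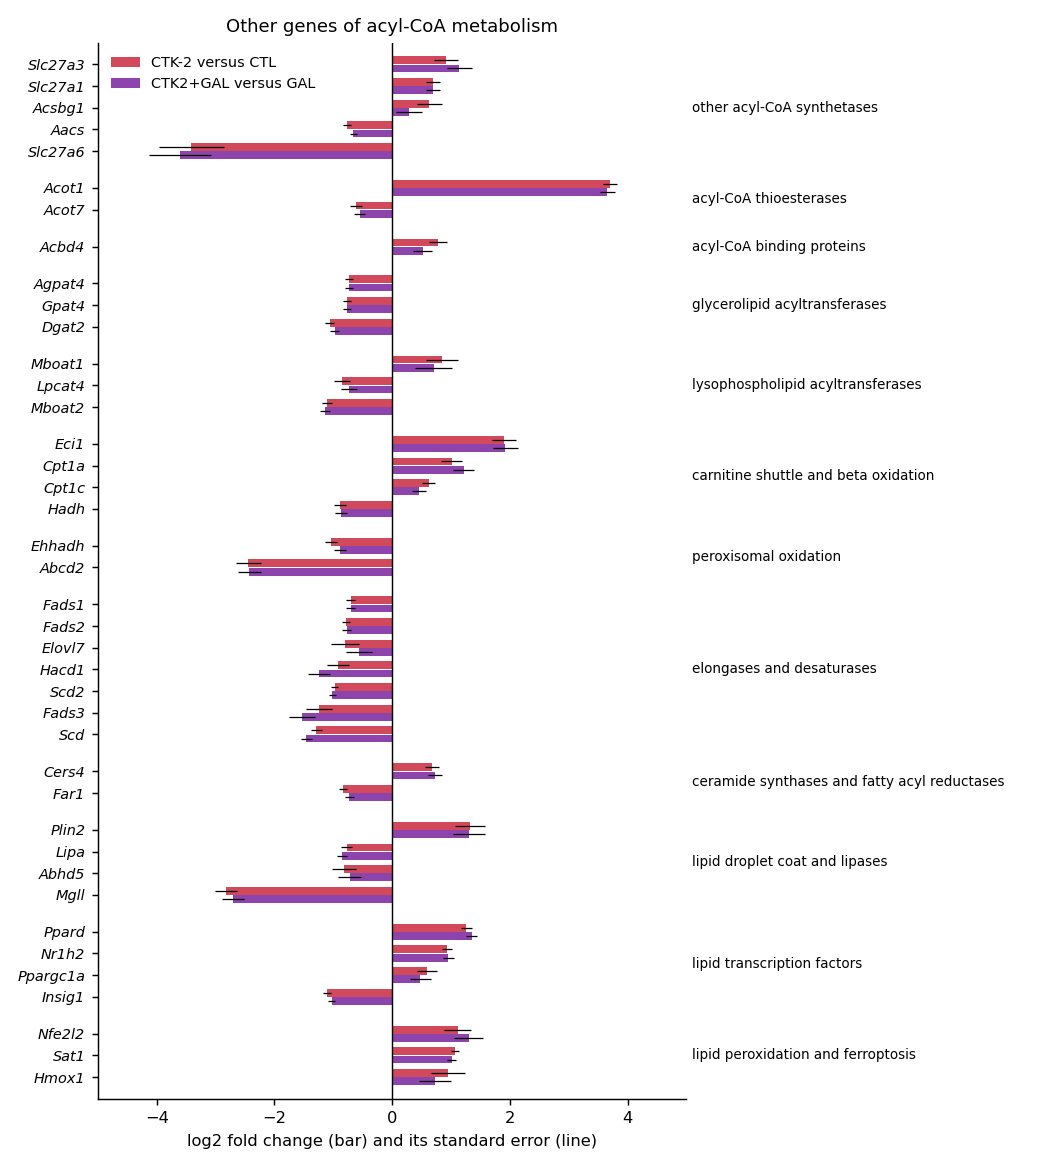
Log2 fold change (horizontal axis; bar, value; black line, standard error) of the 40 matched genes that make or use acyl-CoA, grouped by list, in CTK-2 versus CTL and in CTK2+GAL versus GAL. Every gene has the same sign in both comparisons, and the 7 matched elongases and desaturases and 3 matched glycerolipid acyltransferases all lie below 0.

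Markers of cell types were matched by the same route, so each matched marker had been called by the study in CTK-2 versus CTL and their calls there are not independent. Symbols were found for 7 of 12 listed oligodendrocyte markers, 3 of 10 OPC, 4 of 14 microglia, 2 of 9 astrocyte, 1 of 10 neuron and 1 of 10 fibroblast and endothelial markers, and the other markers were not analysed here. The 7 oligodendrocyte markers were lower in both cytokine comparisons, among them Ugt8 (-1.16 and -1.14) and Tspan2 (-1.62 and -1.59), and their summed level was 2699 to 3096 CPM in CTL and only 1108 to 1214 CPM after cytokines (CTK-2). The OPC markers Pdgfra, Nkx2-2 and Ptprz1 were higher (median 0.73 and 0.77). Of the markers of other cells, Aldoc fell (-0.73 and -0.68) and Sox9 rose (1.98 and 1.81) for astrocytes, Tubb3 rose for neurons (1.01 and 1.01) and Col1a2 for fibroblasts (2.57 and 1.78, at 7.08 CPM in CTK-2). The 4 matched microglia markers were higher with cytokines, Csf1r without a call in CTK2+GAL versus GAL (0.61), and summed to 24.3 CPM or below in every library. The part of these shifts in the levels of the synthetases was not tested.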

How the data were processed

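The deposited counts are whole read pairs per gene for 12 libraries. The authors state FastQC, STAR and DESeq2, and per the file headers the counts came from featureCounts 2.0.0 on the Ensembl release 112 annotation of mRatBN7.2, reversely stranded, with duplicates and multi-mapped pairs left out. No normalization or filter had been applied.

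Genes whose mean count reached 5 were normalized by TMM and fitted in edgeR 4.0.16 (R 4.3.3) with 1 mean per group. Depth was 2600797 to 8978185 pairs. A standard error is the absolute log2 fold change over the square root of F. Shares, sums and ratios used CPM per kilobase of merged exon and exact permutation tests with labels permuted within each background. The calls were tested on simulated data: of 200 genes changed 2-fold, 77.5% were recovered in CTK-2 versus CTL and 80.0% in CTK2+GAL versus GAL among 13243 genes. Of the unchanged genes 2 and 1 were called. The real data had 2311 and 2324 calls, most of them higher, so the simulation does not match their spread of changes.

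Symbols came from a numeric match of the study's gene table by mean count: 1754 of 1786 entries found 1 gene, and 99.7% of 780 entries matched without their chromosome lay on the right one. Columns of fold changes and p-values in that table were not used. RefSeq promoters (GRCr8) were found for all 4 members. The members and lists were chosen with earlier results of these data known. Named were the members, up to 4 called genes with the smallest adjusted p in each of 12 lists together with those against their list's majority, up to 3 markers of each cell type with the highest CPM, and the 3 genes closest to each member; Acsbg1, Elovl7 and Ptprc were named after their values were seen. A few genes that this rule gives are not reported here.

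Same-numbered CTL and GAL libraries deviated together (correlations 0.263 to 0.605, all above 0.1), so the numbers were taken to pair these groups. Differently numbered ones ranged from -0.447 to 0.255, and replicates 3 were the closest pair. CTL replicate 1 was at 0.263 with GAL replicate 1 and at 0.255 with GAL replicate 2. CTL replicate 2 was at 0.268 with GAL replicate 2 and at 0.155 with GAL replicate 1. Numbers 1 and 2 were thus not clearly told apart. Other same-numbered libraries did not deviate together (-0.011 to 0.088). Alternatives were DESeq2 1.42.0 and its size factors, total counts, other filters, a replicate block, the compared groups alone, and each library left out.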

Additional observations from a re-analysis of the deposited data

How the results depend on the processing

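All 4 members were called in both cytokine comparisons, with the same direction, under each of the 20 alternatives, and none was called in a galinex comparison or in the interaction. Over these alternatives Acsl1 ranged from -1.14 to -1.03, Acsl3 from -0.77 to -0.71, Acsl4 from -0.97 to -0.88 and Acsl5 from 0.94 to 1.15 on the log2 scale in CTK-2 versus CTL, and from -1.01 to -0.81, -0.82 to -0.75, -0.90 to -0.84 and 0.95 to 1.15 in CTK2+GAL versus GAL. The call count of the 40 list genes ranged from 36 to 40 and from 31 to 35 with 1 library left out. With no filter on low counts edgeR called 2 genes in GAL versus CTL and 4 in the interaction, of 20963, and without both CTL replicate 3 and GAL replicate 3 it called 4 and 6 of 13315, none of them a member.

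With the replicate block, edgeR called no member in GAL versus CTL, with all libraries or with the CTL and GAL libraries alone, and changed no other call of a member. For shares and ratios the replicate block is an exact sign-flip test of 6 paired differences, whose smallest p is 0.03125: 4 of 6 ratios were called (adjusted p = 0.0469 each), while 0 of 4 shares were called (Acsl1 -2.71 points, adjusted p = 0.125, Acsl3 -4.27, Acsl4 -1.41 and Acsl5 8.39, adjusted p = 0.0833 each), nor was the summed level with galinex (0.044, p = 0.0625) or the ratio of Acsl1 to Acsl3 (-0.24, adjusted p = 0.15). Before adjustment the 4 called ratios and the shares of Acsl3, Acsl4 and Acsl5 all had the smallest possible p. Their calls differ through the adjustment, which ran over 6 ratios but over 4 shares and 2 factors. The adjustment also depends on how many values of a set had the smallest possible p. Without both CTL replicate 3 and GAL replicate 3, chosen after seeing the data, the summed level with galinex (0.043, p = 0.1) and the ratio of Acsl1 to Acsl3 (-0.24, adjusted p = 0.108) were not called by the exact permutation test. With 1 library left out the summed level with galinex ranged from 0.028 to 0.054, the ratio of Acsl1 to Acsl3 from -0.30 to -0.18, Acsl1 to Acsl4 from -0.17 to -0.063, Acsl3 to Acsl4 from 0.11 to 0.16, and the number of ratios called from 3 to 6. The cause was not tested. The sum with Acsl6 added was not run, since Acsl6 could not be matched. The lowest count of a member was 86, and how far depth limits the galinex comparisons was not tested.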
